A study of Zea mays with 27 samples.

Results

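The arrays of B,Pl maize one day after its PE filter was taken away were set against those of B,Pl maize still under PE, 4 of the 27 dual-colour cDNA arrays of a study of ultraviolet radiation and flavonoid content. B,Pl is a genotype that carries the B and Pl regulators of anthocyanin synthesis. All RNA came from adult leaf. Arrays were chosen by their labels: B,Pl sampled 1 day after PE removal (2 arrays, 1 in Cy3 and 1 in Cy5) or under PE (2 arrays, 1 in each dye), each hybridised against b,pl leaf kept under the CA filter. The labels do not spell out CA or PE, give no number of plants, and leave unsaid whether the arrays came from separate plants, so that p-values measure the spread between arrays, which may be technical. The study's other arrays, of B,Pl under further conditions and of b,pl, bz2 and mutator plants, entered this comparison at most through the shared estimate of the spread. Groups with 1 array, such as those of mutator plants, are fitted exactly and add nothing to that estimate. Arrays of B,Pl under CA (2) and of b,pl under PE and 1 day after PE removal (4) also serve in further comparisons below.

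B is a basic helix-loop-helix factor and Pl a MYB factor, and together they switch on the genes of anthocyanin synthesis in the plant body. Flavonoids, the class to which anthocyanins belong, absorb ultraviolet light in the leaf. Exposure to UV-B is known to damage DNA, RNA and proteins of plant cells, and ribosomal RNA of maize leaf can be crosslinked to ribosomal proteins by it.

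Values are log2 ratios of the 2 channels, averaged over the 3 consecutive spots of a cDNA, centred on the array's median, and signed so that B,Pl counts as positive in Cy5 and as negative in Cy3. Which channel was the numerator is not given in the sources used here. Were Cy5 the numerator, a positive value would mean more B,Pl RNA than b,pl RNA and a positive difference more RNA after removal than under PE; were it Cy3, both would mean less. Of 5400 cDNAs, 811 carried a name, for 213 genes. None of 12 flavonoid symbols, b1 and pl1 included, and none of 13 leaf markers looked for was among those names. The genotype could therefore not be checked on these symbols. Leaf origin could not be checked either, since ratios between 2 leaf samples give no level. Of 10 markers of other tissues, the names held kn1 and pcna2 of the meristem and sh1 of the endosperm. Between 15783 and 16046 of the 16200 spots had a value on the 4 arrays, against 14715 to 16122 over the whole series, and array SDs ran from 0.361 to 0.728.

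The dye swap of B,Pl after removal ran in the direction its labels give, and that of B,Pl under PE did not. Signed by dye, the arrays after removal correlated at Pearson 0.14 and Spearman 0.22 over 5318 cDNAs, and the arrays under PE at −0.39 and −0.61 over 5370. These are correlations across cDNAs that share the same b,pl CA control, and cDNAs are not independent replicates. Of the cDNAs tested below, 57.7% had the same sign on both arrays after removal and 24.7% on both arrays under PE. The Cy5 array under PE has conflicting labels, since its title gives Cy5 for B,Pl while both of its source names end in Cy3. When the sign of this array was turned, the median residual variance of the fit went from 0.158 to 0.141. Turning the Cy3 array under PE in its place gives the same 0.141 by construction, since only the sign of a group term changes. Turning either array after removal gave 0.175, likewise equal by construction. Such equal values cannot tell which array of a group has a wrong label. When a further array, B,Pl PE hybridised against B,Pl CA, was tied to its groups, the variance was 0.168 as titled, 0.162 with the Cy5 array turned and 0.146 with the Cy3 array turned. Which PE array, if any, has a wrong dye label was not settled by these values. The dyes were therefore taken from the titles. Values with a PE array turned, within 1 dye or with the dyes ignored (group over other channel) are given for only some lists and cDNAs. A value printed without them may also change sign. Of 26 gene list medians 9 changed sign with the Cy5 array under PE turned, 10 with the Cy3 array turned and 12 with the dyes ignored, and of 55 cDNAs chosen by rule 6, 7 and 29 did.

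With the dyes as titled, 0 of 5289 cDNAs (0%) differed between removal and PE at a limma adjusted p under 0.05, and the smallest limma adjusted p was 1.00. At an unadjusted p under 0.05 limma gave 198 cDNAs (3.74%), 101 positive (1.91%) and 97 negative (1.83%). The difference had a median of 0.02 over all cDNAs, and its 5% and 95% quantiles were −0.95 and 0.66. At the median SE of 0.38 a difference had to exceed 0.86 on the log2 scale to reach an unadjusted p under 0.05, and less at a smaller SE. Without B,Pl PE replicate 2 (the Cy5 array) 335 cDNAs reached it, and without replicate 3 (the Cy3 array) 94. For a single cDNA the exact permutation test of 2 arrays against 2 cannot go below p = 0.333. The difference in Cy5 and that in Cy3 had the same sign for 52.1% of cDNAs and correlated at Pearson 0.09 and Spearman 0.06 over 5289 cDNAs. Among the 800 named cDNAs tested these correlations were −0.02 and −0.004.

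Both cDNAs of RGP (LOC542592), which encodes a reversibly glycosylated polypeptide of cell wall polysaccharide synthesis, stood higher on both arrays after removal than on both arrays under PE. The first, at spot 15802, read 1.13 in Cy3 and 1.79 in Cy5 after removal, and 0.20 and −0.10 under PE. The second, at spot 1645, read 0.83 and 1.32 after removal, and 0.15 and −0.35 under PE. In each case the groups did not overlap, which was so in the positive direction for 15.4% of all cDNAs and in the negative direction for 15.9%. The differences were 1.41 (SE 0.38) and 1.18 (SE 0.33), and neither passed (limma adjusted p = 1.00). They were positive under each of 19 alternative settings, between 0.48 and 1.89 for the first cDNA and between 0.50 and 1.67 for the second. The low ends were reached when the values were read as group over other channel, ignoring the dye. Some of these settings, such as those without the dye term or shrinkage, cannot change a difference. The readings under PE lay between −0.35 and 0.20, so turning a PE array could not change the sign either. The count of settings is therefore no measure of stability.

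**Figure D1:**
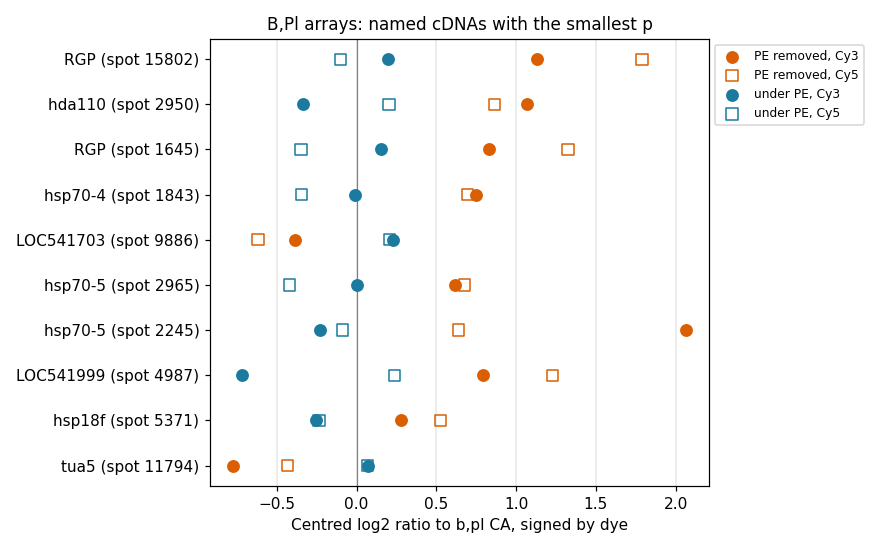
Centred log2 ratio to b,pl CA, signed by dye (horizontal axis), on the 4 B,Pl arrays for the 10 named cDNAs with the smallest unadjusted p and the same sign of the difference in both dyes. Filled circles are Cy3 arrays, open squares Cy5 arrays, orange after PE removal and blue under PE. Orange and blue points do not overlap in any line; the cDNAs were chosen for a small p, and none passed at a limma adjusted p under 0.05.

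A cDNA of hda110 (LOC541972, spot 2950), a histone deacetylase gene, read 1.07 in Cy3 and 0.87 in Cy5 after removal, and −0.33 and 0.20 under PE. Its arrays after removal both lay above its arrays under PE, and the difference was 1.03 (SE 0.29, limma adjusted p = 1.00). It was 1.30 with the Cy5 array under PE turned, 0.63 with the Cy3 array turned and −0.37 with the dyes ignored. Of the other named cDNAs with the smallest unadjusted p, LOC541999 (spot 4987) stood at 0.79 and 1.23 after removal and at −0.72 and 0.24 under PE, a difference of 1.25 (SE 0.42) that was 0.52 with the Cy3 array under PE turned and −0.26 with the dyes ignored. LOC541703 (spot 9886) had one of the 2 negative differences among these 10 cDNAs, with −0.39 and −0.62 after removal and 0.23 and 0.22 under PE, a difference of −0.72 (SE 0.23). The limma adjusted p of both was 1.00, and the files give no role for either.

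The 43 cDNAs of the HSP70 genes hsp70-4 and hsp70-5, chaperones that bind unfolded proteins, were mostly positive, at a median difference of 0.31 against 0.02 for all cDNAs. Their medians were 0.36 in Cy3 and 0.24 in Cy5 after removal, and 0.26 and −0.35 under PE, so that the Cy5 array under PE was the low one. Of the 43, 38 were positive, against 52.1% of all cDNAs, 12 had groups that did not overlap in the positive direction (15.4% of all cDNAs) and 0 in the negative. At a limma adjusted p under 0.05 0 passed, with 3 at an unadjusted p under 0.05 (3.74% of all cDNAs). Within Cy5 the median difference was 0.61, and within Cy3 0.03. It was −0.01 with the sign of the Cy5 array under PE turned and 0.56 with that of the Cy3 array turned.

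An hsp70-4 cDNA at spot 1843 read 0.75 in Cy3 and 0.70 in Cy5 after removal, and −0.01 and −0.34 under PE, a difference of 0.90 (SE 0.27, limma adjusted p = 1.00). For an hsp70-5 cDNA at spot 2965 the readings were 0.61 and 0.68, then 0.01 and −0.42, a difference of 0.85 (SE 0.27, limma adjusted p = 1.00). On both cDNAs the arrays after removal were alike and lay above those under PE. A second hsp70-5 cDNA, at spot 2245, read 2.07 and 0.64 after removal, and −0.23 and −0.09 under PE, and its difference of 1.51 (SE 0.50, limma adjusted p = 1.00) rested largely on the Cy3 array. With the dyes ignored this cDNA stood at −0.79. Small heat shock proteins, chaperones that hold unfolding proteins in solution, showed no common direction, with 3 of 6 cDNAs positive and a median of −0.01, or 0.09 without centring. Of these, hsp18f (LOC542723, spot 5371) read 0.28 and 0.53 after removal and −0.26 and −0.24 under PE, a difference of 0.65 (SE 0.25, limma adjusted p = 1.00). The hsp18a cDNA at spot 13996 had overlapping groups, with −0.29 and 0.66 after removal and 0.47 and 0.66 under PE. Close family members can cross-hybridise on cDNA arrays, so values of single HSP70, tubulin, histone or elongation factor genes are uncertain.

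Elongation factor 1-alpha, which carries aminoacyl-tRNA to the ribosome, was positive in 56 of 58 cDNAs, at a median difference of 0.37. The medians were −0.02 in Cy3 and 0.38 in Cy5 after removal, and −0.59 and 0.20 under PE. Here the Cy3 array under PE was the low one, and the median difference was 0.57 within Cy3 and 0.11 within Cy5. Both dyes were positive for 39 of the 58 cDNAs, against 26.3% of all cDNAs, and the groups did not overlap for 9, all positive (15.4% of all cDNAs). At a limma adjusted p under 0.05 0 passed, with 1 at an unadjusted limma p under 0.05 (3.74% of all cDNAs). The median was 0.49 with the sign of the Cy5 array under PE turned, −0.18 with that of the Cy3 array turned and −0.22 with the dyes ignored. All 35 cDNAs of elfa3 (LOC542620) were positive, at a median of 0.41, as were 12 of 13 of elfa2 (LOC100037748) at 0.37 and 9 of 10 of EF1A (LOC542581) at 0.30. The cDNA of elfa3 with the smallest p, at spot 13171, read −0.17 and 4.31 after removal and −0.58 and 0.22 under PE. Its difference of 2.25 (SE 0.97, limma adjusted p = 1.00) rested on 1 array, and the groups overlapped.

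Ribosomal protein cDNAs were positive in 14 of 15 cases, at a median of 0.32. They read 0.17 and 0.37 after removal, in Cy3 and Cy5, and −0.43 and 0.24 under PE. Again the Cy3 array under PE was the lowest, and with its sign turned the median difference was 0.07, against 0.33 with the Cy5 array turned and −0.12 with the dyes ignored. All 7 cDNAs of RP-P0 (LOC542454), which encodes the acidic stalk protein P0 of the large ribosomal subunit, were positive, at a median of 0.35, with 0.38 in Cy5 and 0.37 in Cy3. The RP-P0 cDNA at spot 2515 read 0.32 and 0.62 after removal and −0.72 and 0.24 under PE, a difference of 0.71 (SE 0.35, limma adjusted p = 1.00) with no overlap, which was 0.07 with the Cy3 array under PE turned and −0.33 with the dyes ignored. Translation initiation factors, which bring ribosomes to the start codon, were divided, with 6 of 12 positive and a median of −0.02, or 0.09 without centring. The median of these factors was 0.22 with the Cy5 array under PE turned and −0.35 with the Cy3 array turned. Among them tif4A2 (LOC541649, spot 1753) read 0.43 and 0.45 after removal against 0.09 and −0.12 under PE, and eif5a (LOC542537, spot 8527) read −0.50 and −0.24 against −0.10 and −0.04.

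**Figure D2:**
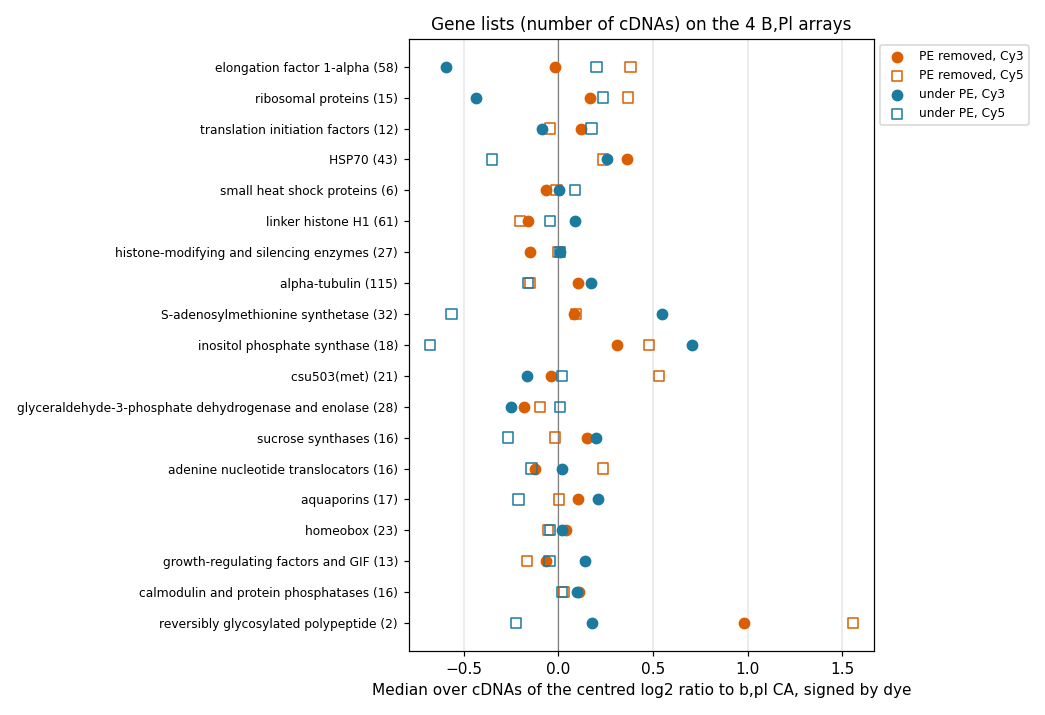
Median over the cDNAs of each gene list (number of cDNAs in brackets) of the centred log2 ratio to b,pl CA, signed by dye (horizontal axis), on each of the 4 B,Pl arrays. Filled circles are Cy3, open squares Cy5, orange after removal and blue under PE. Inositol phosphate synthase and S-adenosylmethionine synthetase lie far apart on the PE arrays (0.71 and −0.68, 0.55 and −0.56), and elongation factor 1-alpha and ribosomal proteins are lowest on the Cy3 array under PE.

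Linker histones H1, which bind the DNA between nucleosomes, were mostly negative. Over 61 of the 63 cDNAs that could be tested the median difference was −0.18, and 45 were negative. Their medians were −0.16 in Cy3 and −0.20 in Cy5 after removal, and 0.09 and −0.05 under PE, so that both arrays after removal lay below both under PE. Both dyes gave nearly the same value, −0.18 in Cy5 and −0.19 in Cy3. Groups did not overlap in the negative direction for 23 cDNAs (15.9% of all cDNAs) and in the positive direction for 4 (15.4%). None passed at a limma adjusted p under 0.05, and 0 did at an unadjusted p under 0.05 (3.74% of all cDNAs). With either PE array turned the median was −0.21 or −0.18, while with the dyes ignored it was 0.04.

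Most of the negative cDNAs belonged to hon102 (LOC541964), which also held 35 of the 61 H1 cDNAs tested. Of its 35 cDNAs 28 were negative, at a median of −0.32, and 16 had groups that did not overlap, all of them negative (15.9% of all cDNAs). Its cDNA at spot 15088 read −0.46 and −0.58 after removal and 0.21 and −0.14 under PE, a difference of −0.55 (SE 0.31, limma adjusted p = 1.00). The cDNA at spot 7003 read −0.49 and −0.46, then 0.24 and −0.26, a difference of −0.46 (SE 0.25, limma adjusted p = 1.00). With the dyes ignored these cDNAs stood at 0.11 and 0.26. The other H1 genes stood nearer 0 but were also mostly negative, hon101 at a median of −0.08 with 9 of 15 negative and his1 at −0.10 with 8 of 11. Core histone his2b5 (LOC542301), part of the nucleosome itself, was negative for 3 of 4 cDNAs at a median of −0.41, and at 0.04 with the dyes ignored. Groups did not overlap for 1 of these 4 cDNAs, in the negative direction (15.9% of all cDNAs). Histone-modifying and silencing enzymes were divided, with 11 of 27 cDNAs positive and a median of −0.08, or 0.02 without centring. Besides hda110, the cDNA of hda113 at spot 871 (LOC542568, a second histone deacetylase gene) read 0.78 and 0.60 after removal and 0.06 and −0.28 under PE, a difference of 0.80 (SE 0.47, limma adjusted p = 1.00); the other hda113 cDNA was negative, at −0.70.

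Alpha-tubulin, the subunit of microtubules with the most named cDNAs, had 56 of 115 positive and a median difference of 0.00, or 0.10 without centring. Its readings were 0.11 in Cy3 and −0.15 in Cy5 after removal, and 0.17 and −0.16 under PE, so that they followed the dye and not the group. The median difference was −0.19 with the Cy5 array under PE turned and 0.19 with the Cy3 array turned. Groups did not overlap for 13 cDNAs in the positive direction (15.4% of all cDNAs) and 21 in the negative (15.9%), shares near those of all cDNAs. The tua5 gene (LOC542248) was negative for 7 of 8 cDNAs, at a median of −0.21. At spot 11794 it read −0.78 and −0.43 after removal and 0.07 and 0.07 under PE, a difference of −0.67 (SE 0.27, limma adjusted p = 1.00). It was −0.59 or −0.62 with either PE array turned and 0.17 with the dyes ignored. The tua3 gene stood on the other side, with 13 of 16 positive and a median of 0.13. A beta-tubulin cDNA, tub6 at spot 12700, read 3.03 on the Cy3 array under PE and between −0.53 and 0.10 on the other 3.

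S-adenosylmethionine synthetase, which makes the methyl donor S-adenosylmethionine, and inositol phosphate synthase, which makes the precursor of inositol, had the PE arrays farthest apart among the lists of over 2 cDNAs. For sam2 (LOC542733, 32 cDNAs) the medians were 0.08 in Cy3 and 0.09 in Cy5 after removal, and 0.55 and −0.56 under PE. For INO1 (LOC542540, 18 of 19 cDNAs tested) they were 0.31 and 0.48, and 0.71 and −0.68. In both genes the arrays after removal lay between the PE arrays, and the sign of the difference depended on the dye. It was 0.69 within Cy5 and −0.47 within Cy3 for sam2, and 1.17 and −0.38 for INO1. In Cy5 32 of 32 sam2 and 17 of 18 INO1 cDNAs were positive, and in Cy3 2 and 0 were. With the Cy5 array under PE turned the median was −0.33 for sam2 and −0.04 for INO1, and with the Cy3 array turned 0.53 and 0.81. Groups did not overlap for 1 of the 32 sam2 cDNAs, in the positive direction, against 15.4% of all cDNAs. That cDNA, at spot 7450, read 0.37 and 0.48 after removal and 0.05 and −0.21 under PE, a difference of 0.50 (SE 0.22, limma adjusted p = 1.00).

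**Figure D3:**
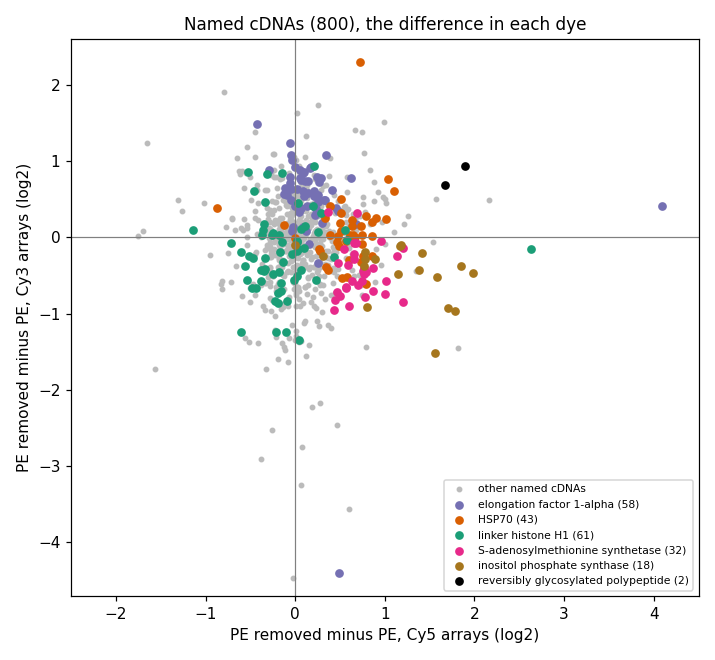
Difference between PE removal and PE on the log2 scale within the Cy5 arrays (horizontal axis) and within the Cy3 arrays (vertical axis), 1 point per named cDNA tested (800), coloured by gene list. INO1 and sam2 lie right of 0, except for 1 INO1 cDNA, and mostly below it. Most elongation factor 1-alpha cDNAs lie above 0 near the vertical axis. Both RGP cDNAs lie in the upper right, where the dyes share a positive sign.

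The cDNAs named csu503(met) (LOC541942) were positive in 18 of 21 cases at a median of 0.37. They read −0.04 and 0.53 after removal and −0.17 and 0.02 under PE, and the Cy5 array after removal was the high one. Within Cy5 the median difference was 0.44 and within Cy3 0.16. Over 19 alternative settings, some of which cannot move a difference, the median ran from 0.02 to 0.60 with no change of sign. Its cDNA at spot 1819 read 0.51 and 2.06 after removal and 0.01 and −0.10 under PE, a difference of 1.33 (SE 0.54, limma adjusted p = 1.00). Genes of methionine synthesis and methyl transfer stood at −0.04 over 7 cDNAs, 2 of them positive, and at 0.07 without centring. The list leaves out the csu503(met) cDNAs, and 5 of its 7 cDNAs were of PEAMT. In this list PEAMT, a phosphoethanolamine methyltransferase of choline synthesis, had a cDNA at spot 12412 with −0.64 and −0.30 after removal and 0.28 and −0.16 under PE, a difference of −0.53 (SE 0.23, limma adjusted p = 1.00) that was 0.39 with the dyes ignored.

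Genes of carbon and energy metabolism were divided. Glyceraldehyde-3-phosphate dehydrogenases and enolases of glycolysis had a median of 0.01, with 15 of 28 cDNAs positive. The median of this list was 0.08 with the Cy5 array under PE turned and −0.45 with the Cy3 array turned. Within this list all 5 cDNAs of eno1 (LOC732811) were negative, from −0.46 to −0.14. At spot 13891 eno1 read −0.43 and −0.25 after removal and 0.15 and 0.04 under PE, a difference of −0.43 (SE 0.31, limma adjusted p = 1.00) that was 0.15 with the dyes ignored. Sucrose synthases, which cleave sucrose, had 9 of 16 positive and a median of 0.15; a sus1 cDNA (LOC542247, spot 13237) read −0.65 and −0.66 after removal and 2.25 and −0.28 under PE, so that its difference of −1.64 (SE 0.77, limma adjusted p = 1.00) rested on 1 PE array and was 0.73 with that array turned. Adenine nucleotide translocators, which exchange ATP and ADP across the inner mitochondrial membrane, stood at 0.09 (0.36 in Cy5 and −0.18 in Cy3). Alcohol, pyruvate and malate dehydrogenases stood at 0.13, with 5 of 8 positive, and at −0.02 with the Cy3 array under PE turned. With the Cy5 array under PE turned the median was −0.20 for sucrose synthases and −0.15 for adenine nucleotide translocators.

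Lists of transport, signalling and growth control had medians from −0.14 to 0.06. Aquaporins, the water channels, had 10 of 17 positive at a median of 0.06, and the PIP1-1 cDNA at spot 3382 (LOC542434) had overlapping groups, with 0.93 and 0.01 after removal and 0.48 and −1.01 under PE. Calmodulin and protein phosphatases were at 0.02 with 8 of 16 positive. Homeobox genes stood at −0.10 with 8 of 23 positive, and at 0.01 without centring. In that list kn1 (LOC542391), a meristem regulator, had 4 of 10 positive, and its cDNA at spot 4156 read 0.43 and 0.62 after removal and 0.16 and −0.63 under PE. Growth-regulating factors and their cofactors had 2 of 13 positive at a median of −0.14. Their median was 0.12 with the Cy3 array under PE turned and 0.17 with the dyes ignored. Glutathione S-transferases, which conjugate glutathione to other compounds, and fdh1 were at 0.03 with 6 of 9 positive. Replication genes were at 0.03 with 2 of 4 positive, and at −0.38 with the Cy5 array under PE turned. The photosynthesis list held 1 gene, Lhcb5-2 (LOC542320), a chlorophyll-binding antenna protein, and its cDNAs disagreed. One, at spot 11062, read −0.98 and −0.80 after removal and 0.41 and −0.38 under PE, a difference of −0.90 (SE 0.44, limma adjusted p = 1.00) and of 0.49 with the dyes ignored, while the other, at spot 9901, read −1.24 and 1.35 after removal and had a difference of 0.19 (SE 1.00).

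**Figure D4:**
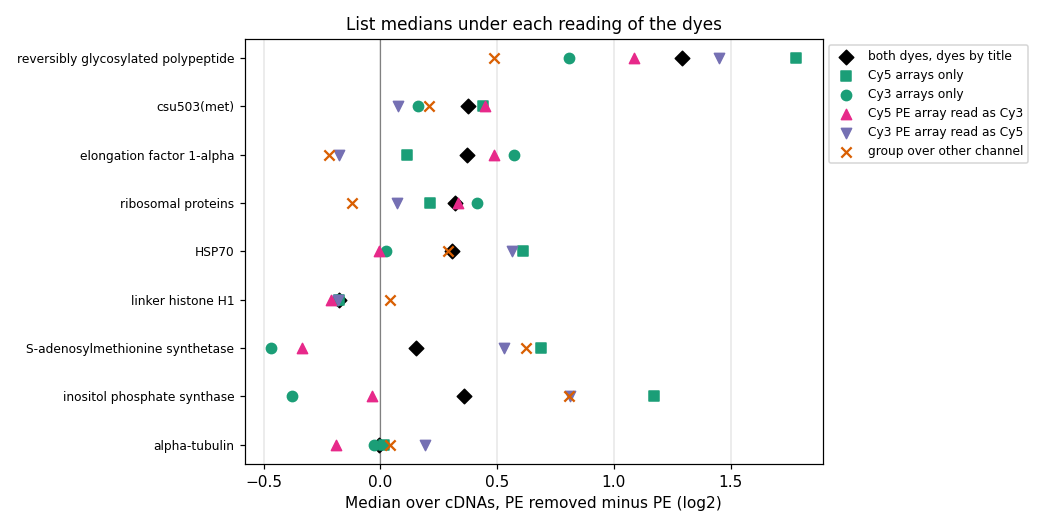
Median difference between PE removal and PE (horizontal axis, log2) for 9 gene lists under 6 readings of the same arrays: both dyes as titled (diamonds), 1 dye only, either PE array read as labelled with the other dye, and all arrays read as group over other channel. RGP and csu503(met) stay above 0 in all 6, linker histone H1 below 0 in 5 of 6, and S-adenosylmethionine synthetase and inositol phosphate synthase fall on both sides. The readings share arrays and are not independent, so a count of them is no measure of stability. Both RGP cDNAs are also among those chosen for a small p.

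Set against B,Pl under CA (2 arrays, 1 per dye, also with b,pl CA in the other channel), B,Pl after removal showed 0 of 5067 cDNAs (0%) at a limma adjusted p under 0.05 and 338 (6.67%) at an unadjusted p under 0.05. The second count became 1113 or 69 when the first or the second CA array of B,Pl was left out, and 164 when the Cy3 array after removal was. B,Pl under PE against CA gave 0 of 5112 (0%) and 172 (3.36%). The comparisons share arrays, so values are set side by side only. The RGP cDNA at spot 15802 stood at 1.66 (SE 0.38) after removal and at 0.25 under PE, both relative to CA, and the one at spot 1645 at 0.72 (SE 0.33) and −0.45. For hda110 at spot 2950 the values were 0.95 (SE 0.29) and −0.08. Linker histones H1 had a median of −0.25 after removal and −0.02 under PE, and HSP70 one of 0.03 after removal and −0.34 under PE. Elongation factor 1-alpha stood at 0.12 and −0.23. Without B,Pl CA replicate 1 the count of cDNAs after removal against CA was 529 of the cDNAs tested, and that fit rested on B,Pl CA replicate 2, which had an SD of 1.14 and 14799 spots with a value.

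The same step in b,pl, removal against PE on 4 further arrays with b,pl CA in the other channel, gave 0 of 5109 cDNAs (0%) at a limma adjusted p under 0.05 and 103 (2.02%) at an unadjusted p under 0.05. Of these arrays, b,pl PE removed replicate 2 has conflicting labels, with Cy5 in its title and a source name ending in Cy3. Its sign was not turned in any setting, so the b,pl values and the differences between genotypes below rest on its title. A test of the difference between the genotypes, B,Pl minus b,pl, found 0 of 5025 (0%) at a limma adjusted p under 0.05, with 71 (1.41%) at an unadjusted p under 0.05, a count that ran from 30, with b,pl PE removed replicate 1 left out, to 706, with b,pl PE replicate 1 left out. Elongation factor 1-alpha had a median of 0.37 in B,Pl and 0.34 in b,pl, and ribosomal proteins 0.32 and 0.25. Linker histones H1 stood at −0.18 in B,Pl and 0.14 in b,pl, with a median of −0.39 for the difference between genotypes over the cDNAs tested. For hda110 at spot 2950 the values were 1.03 and −0.21, and the difference between genotypes was 1.24 (SE 0.41, limma adjusted p = 1.00). RGP at spot 15802 stood at 1.41 in B,Pl and 0.60 in b,pl, a difference between genotypes of 0.81 (SE 0.54, limma adjusted p = 1.00), and at spot 1645 at 1.18 and 0.22, a difference of 0.95 (SE 0.47, limma adjusted p = 1.00). Without b,pl PE replicate 1 the count for the difference between genotypes was 169, and that fit rested on b,pl PE replicate 2, which had an SD of 1.14 and 14715 spots with a value.

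Differences over 1 in size between removal and PE were seen for 319 cDNAs, 83 positive and 236 negative, with 10 named on each side. In both dyes at once the difference was over 1 for 14 cDNAs and under −1 for 50, and 1 of these 64 was named, a tua4 cDNA at spot 13981 with −2.19 and −0.48 after removal and −0.46 and 1.09 under PE. The unnamed cDNA with the smallest p, at spot 2890, read 1.24 and 1.77 after removal and −0.16 and 0.02 under PE, a difference of 1.57 (SE 0.35, limma adjusted p = 1.00). On the negative side the smallest p belonged to an unnamed cDNA at spot 10996, with −1.10 and −1.17 after removal, 0.20 and 0.17 under PE, and a difference of −1.32 (SE 0.33, limma adjusted p = 1.00). Of the 50 cDNAs under −1 in both dyes, 40 (80%) began within 100 spots of a multiple of 2025 in the spot order, against 9.02% of the cDNAs tested, and 38 (76%) lacked a spot on a compared array, against 7.24%. Of the 14 over 1 in both dyes, 3 lay near such a multiple and 4 lacked a spot. The part of spot position and missing spots in these differences was not tested, and they were looked for after the values had been seen.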

How the data were processed

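Per spot, the authors deposited 1 log2 ratio between the channels of an array; base 2 was read from the values, since 16.3% of large ratios had whole antilogs (within 0.0001) in base 2 and 0.0751% in base e. How they scanned, corrected and normalised the arrays, and the numerator, is not given in the sources used here. Spots came in triplicates (median SD 0.038, against 0.183 when shifted by 1 spot); the 3 were averaged and arrays centred on the median. Names came from an old probe annotation, with 208 of 213 genes matched to Zm-B73-REFERENCE-NAM-5.0. All 27 arrays entered 1 least squares model per cDNA with 20 terms: 19 group terms relative to b,pl CA, 1 of them for the array of B,Pl PE hybridised against B,Pl CA, plus 1 dye term. This left 7 residual degrees of freedom, plus 2.33 from limma 3.58.1 (squeezeVar, R 4.3.3). P-values were adjusted by Benjamini-Hochberg over all cDNAs tested, both directions, threshold 0.05. A cDNA needed a value on every compared array, which 111 lacked, 11 of them named. The fit was run on simulated data with independent noise and planted differences larger than most seen here. That run checks the calculation, and neither the dye labels nor the power at the sizes seen. No array was weighted or imputed.

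The text names the 10 named cDNAs with the smallest unadjusted p and the same sign in both dyes, and draws on up to 2 cDNAs per gene list (26 lists, 580 cDNAs) with the smallest p; 3 further cDNAs, of tua4 and 2 without a name, and the genes given by their counts were picked after their values were seen. Members and lists were chosen with earlier results of these data known. Alternatives covered spot averaging, centring, scaling, filters, the dye term, shrinkage, the arrays fitted, dye readings and leaving out each array. The number of arrays limits the precision.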

Additional observations from a re-analysis of the deposited data

How the results depend on the processing

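For removal against PE in B,Pl, 0 cDNAs passed at a limma adjusted p under 0.05 in every setting except within 1 dye and with 1 array left out. Within Cy5 1 passed and within Cy3 2, and with 1 array left out 0 to 5 did, all without a name: 5 without B,Pl PE removed replicate 1, 1 without its replicate 2, 1 without B,Pl PE replicate 2 and 0 without replicate 3. The number at an unadjusted p under 0.05 was 497 with B,Pl PE replicate 2 read as the other dye, 256 with replicate 3 so read and 76 with all dyes ignored (group over other channel). The difference between B,Pl and b,pl had 6 calls within Cy3 and 0 to 169 with 1 array left out, the highest without b,pl PE replicate 1. Removal against B,Pl CA had 0 to 529 with 1 array left out, the highest without B,Pl CA replicate 1. Fits that leave 1 array in a group assume that it varies like the others. Of 26 list medians, 12 changed sign with all dyes ignored, 9 with PE replicate 2 and 10 with PE replicate 3 read as the other dye, 7 within either dye alone and 6 without centring, which moved the median of all cDNAs by 0.107. Leaving out cDNAs near multiples of 2025 spots, a step chosen after seeing the data, changed the sign of 0 of 26 list medians, with 0 calls. No paired analysis was possible because the labels carry no replicate numbers. Signal over background is not known from ratios, so limits at low signal could not be given.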
